A study of Capra hircus with 2 samples.

Results

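The epithelial miRNAs described here are the miR-200 family (miR-200a, miR-200b, miR-200c, miR-141 and miR-429), miR-205 and miR-375. MicroRNAs (miRNAs) are small regulatory RNAs that silence messenger RNAs through base pairing, and each is cut from a hairpin precursor whose arms are called 5p and 3p. Members were found by name in both deposited lists of small RNA sequences. Names were read without species prefix, copy number and arm, and reads were summed for each name and arm in each library. Of 7 names, 6 were found, with 10 arms among the 1814 named arms of the lists. No entry bore the name miR-205. The members were chosen by name, as a known family with miR-205 and miR-375 added. Their reads and ratios in these libraries were already known, so their differences between the libraries are given as a description.

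The cells came from 3 testes of 3 Saanen dairy goats aged 5 months. CD49f-positive cells, which carry the integrin alpha-6 chain on their surface, were compared with CD49f-negative cells. Both fractions came from testicular cells that had been digested with enzymes, plated overnight to remove Sertoli and myoid cells, and sorted magnetically. With 1 library for each fraction there are no replicates, so no p-value is given. Whether the goats were pooled is not stated. Named miRNAs took 8196507 reads of the CD49f-positive library, against 3064462 of the CD49f-negative library, a depth 2.67 times greater. Levels are given in RPM, the reads out of each 1000000 named miRNA reads of a library.

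The miR-200 family keeps epithelial cells epithelial by repressing the transcription factors ZEB1 and ZEB2, which switch off the adhesion gene CDH1. It is encoded in a pair of clusters, each read as 1 primary transcript. miR-205, from a locus of its own, also represses ZEB1 and ZEB2 and is typical of stratified and basal epithelium. miR-375 is best known from pancreatic islets and other endocrine cells, where it restrains insulin secretion, and it is abundant in several glandular epithelia. In the male tract, epithelium lines the rete testis, the efferent ducts and the epididymis.

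The mature sequences show how the family splits. They are given 5′ to 3′, with T for U, as the deposited lists hold them, with the seed (bases 2 to 8, which pair with targets) in capitals.
miR-200b-3p, CD49f-positive: tAATACTGcctggtaatgatga
miR-200b-3p, CD49f-negative: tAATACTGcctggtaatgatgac
miR-200c-3p, both libraries: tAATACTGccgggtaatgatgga
miR-429-3p, CD49f-positive: tAATACTGtctggtaatgccg
miR-200a-3p, CD49f-positive: tAACACTGtctggtaacgatg
miR-141-3p, both libraries: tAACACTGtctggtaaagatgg
miR-375-3p, both libraries: tTTGTTCGttcggctcgcgtga

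miR-200b, miR-200c and miR-429 share the seed AATACTG, and miR-200a and miR-141 share AACACTG. The seeds differ by the substitution C4T, read as the base of miR-200a or miR-141, the position counted from the 5′ end of the mature miRNA, and the base of miR-200b, miR-200c or miR-429. Over the known mature sequences the lists matched them to, miR-200b-3p and miR-200c-3p were identical at 20 of 21 bases, with T11G as the difference. miR-141-3p and miR-200a-3p were identical at 20 of 22. Among 679 named arms listed at known goat hairpins, AATACTG was the seed of these 3 names and AACACTG of these 2, and none had the seed of miR-375-3p.

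The hairpins of the family lie in both known clusters. The coordinates are those of the deposited lists, on a goat genome whose build is not given in the sources used here. The hairpins are printed in the direction of the miRNA, on the minus strand, with the listed CD49f-positive 3p sequence in capitals, because the reads below come almost only from that arm.
miR-200b, chr16:48887353-48887432: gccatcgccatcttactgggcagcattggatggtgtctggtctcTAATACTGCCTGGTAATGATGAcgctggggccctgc
miR-200a, chr16:48886719-48886806: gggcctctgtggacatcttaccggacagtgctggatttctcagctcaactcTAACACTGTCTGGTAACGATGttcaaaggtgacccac
miR-429, chr16:48885489-48885572: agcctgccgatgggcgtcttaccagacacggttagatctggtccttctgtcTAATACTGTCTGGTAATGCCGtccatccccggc
miR-200c, chr5:94625277-94625362: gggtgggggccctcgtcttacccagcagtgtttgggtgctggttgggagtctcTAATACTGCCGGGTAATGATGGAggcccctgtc
miR-141, chr5:94624858-94624947: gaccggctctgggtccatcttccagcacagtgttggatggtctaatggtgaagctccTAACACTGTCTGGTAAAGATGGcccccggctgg

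The chromosome 16 hairpins span 1944 bases and those on chromosome 5 span 505 bases. In the RefSeq gene table of the goat assembly ARS1.2, used for names and neighbours only, MIR429, MIR200A and MIR200B stand side by side between TTLL10 and C16H1orf159. MIR141 and MIR200C stand side by side there, next to PTPN6. miR-375 was matched to hairpins of other mammals that the authors' search did not place on the goat genome, so no position is given for it.

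miR-375-3p was the member with most reads in both libraries. It was read 290 times in CD49f-positive cells, against 463 times in CD49f-negative cells. Its level was 35.4 RPM in CD49f-positive cells (95% exact Poisson interval 31.4 to 39.7), against 151 RPM in CD49f-negative cells (138 to 165). This is 4.27 times lower in CD49f-positive cells (95% interval 3.68 to 4.96), a log2 ratio of -2.09 (-2.31 to -1.88). By reads it ranked 179 in the CD49f-positive list and 121 in the CD49f-negative list. Its counts come from entries matched to different hairpins, of cattle in the CD49f-positive list and of gorilla in the CD49f-negative list. Over copies of the listed sequence, the same 22 bases in both, the log2 ratio was -2.33 (-2.63 to -2.04). The copies were divided by the totals of all named reads, not by totals of copies. All intervals reflect counting error alone, and without molecular identifiers PCR copies are counted as if they were separate molecules. In cells sorted in bulk, fewer cells of a type and less of a miRNA per cell cannot be told apart.

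miR-200b-3p was the only other member arm with at least 100 reads over both libraries. It was read 235 times in CD49f-positive cells, against 269 times in CD49f-negative cells, at levels of 28.7 RPM (25.1 to 32.6) and 87.8 RPM (77.6 to 98.9). It was 3.06 times lower in CD49f-positive cells (2.56 to 3.66), a log2 ratio of -1.61 (-1.87 to -1.36). It ranked 188 and 151 by reads. An interval that excludes equal shares does not set these arms apart, and how many of all 301 compared arms had one was not counted. At depths near theirs, miR-144-3p (476 and 285 reads) had a log2 ratio of -0.68 (-0.89 to -0.46). let-7j-5p (376 and 137 reads) was at 0.03 (-0.25 to 0.33), which includes equal shares. Counting intervals of abundant arms exclude equal shares at small shifts too. For miR-99b-5p the log2 ratio was -0.19 (-0.21 to -0.17), and for let-7i-5p 0.27 (0.25 to 0.29).

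**Figure D1:**
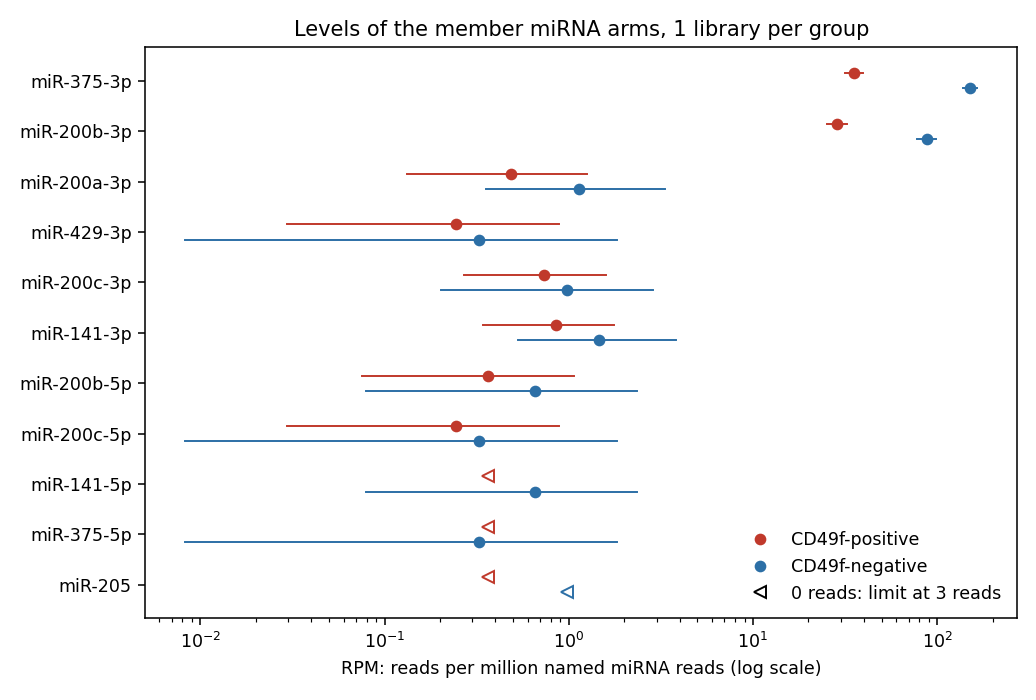
Levels in RPM (log scale) of the 10 member arms and miR-205 in the CD49f-positive (red) and CD49f-negative (blue) library; points are single libraries, lines are 95% exact Poisson intervals, and open triangles mark the level that 3 reads would give where none was listed. miR-375-3p (35.4 and 151) and miR-200b-3p (28.7 and 87.8) stand apart from the other arms, whose intervals overlap between the libraries; the 5p arms and the CD49f-negative miR-429-3p read include short fragments described in the text.

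The other miR-200 family members were close to the limit of these libraries. miR-141-3p was read 7 times in CD49f-positive cells, against 4.5 times in CD49f-negative cells, at a log2 ratio of -0.83 with an interval from -2.81 to 1.06. It gets no call, because it stayed under 100 reads. Too rare to compare, with fewer than 10 reads in all, were miR-200a-3p (4 and 3.5 reads), miR-200c-3p (6 and 3) and miR-429-3p (2 and 1). Fractions arise where the authors split a read that fits several hairpins. miR-200a-3p and miR-141-3p, which share their seed, both have them in the CD49f-negative library.

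Summed, miR-200a-3p, miR-200c-3p, miR-141-3p and miR-429-3p had 19 and 12 reads, or 2.32 and 3.92 RPM. The log2 ratio of that sum was -0.78, with an interval from -1.87 to 0.42 that includes equal shares as well as the value of miR-200b-3p. A difference between these rarer members and miR-200b-3p was thus not detectable at this depth. By seed, the AATACTG group had 243 and 273 reads, with a log2 ratio of -1.59 (-1.84 to -1.33). The AACACTG group had 11 and 8 reads, with a log2 ratio of -0.98 (-2.41 to 0.56).

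miR-200b-3p made up nearly the whole family in both libraries. It held 92.5% of the family's 3p reads in CD49f-positive cells (exact Clopper-Pearson interval 88.6 to 95.4), against 95.7% in CD49f-negative cells (92.7 to 97.8), and these intervals overlap. miR-141-3p held 2.76% and 1.60%, miR-200c-3p 2.36% and 1.07%, miR-200a-3p 1.57% and 1.25%, and miR-429-3p 0.787% and 0.356%. The predominance held within 1 cluster. On chromosome 16, miR-200b-3p had 58.8 reads for each read of its neighbour miR-200a-3p in the CD49f-positive library (22.6 to 217), against 76.9 in the CD49f-negative library (26 to 249). On chromosome 5, miR-200c-3p and miR-141-3p had too few reads to show whether either prevailed. There were 0.857 reads of miR-200c-3p for each of miR-141-3p in the CD49f-positive library (0.238 to 2.98), against 0.667 in the CD49f-negative library (0.0932 to 3.08).

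No row of either list bore the name miR-205. A count of 0, taken as up to 3 reads, allows a level of up to 0.366 RPM in the CD49f-positive library, against 0.979 RPM in the CD49f-negative library. This limit is below the intervals of miR-200b-3p and miR-375-3p in both libraries, while it lies inside those of miR-200a-3p and miR-200c-3p.

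Entries named for the 5p arms were mostly not those arms. Of 19 member entries, 7 were fragments of 15 or 16 bases, with 5 reads in each library, and 6 of these had no read without a mismatch. They make up all reads of miR-200c-5p (2 and 1), miR-141-5p (0 and 2) and miR-375-5p (0 and 1), and the single CD49f-negative read of miR-429-3p. The 3 CD49f-positive reads of miR-200b-5p were of this kind too, placed on chromosome 10 away from the miR-200b hairpin. Of the fragments they alone had reads with no mismatch, 2 of 3. The 5p sequence of the miR-200b hairpin itself was listed in the CD49f-negative library only.
miR-200b-5p, CD49f-negative: cATCTTACtgggcagcattgga
It had 2 of the 271 reads of that hairpin, or 0.738% (0.0895 to 2.64), while the CD49f-positive library had 0 of 235, with an upper bound of 1.56%. These intervals overlap, so no difference in arm use was detectable.

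The listed ends of the mature sequences varied. For miR-200b-3p the listed sequence had 22 bases and 78 copies in the CD49f-positive library, against 23 bases and 89 copies in the CD49f-negative library. The known cattle miR-200b that it was matched to ends earlier still, at 21 bases. In both libraries the listed sequence accounted for 33.2% and 33.1% of the arm's reads. Per the authors' column description it is the read with the highest mapping score, so it need not be the most frequent end. Of 244 compared arms with a listed sequence at known hairpins in both libraries, 204 had the same length in both, 15 were shorter and 25 longer in the CD49f-positive library. miR-200b-3p was among the 15.

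For miR-375-3p both libraries listed the same 22 bases, with 145 copies in the CD49f-positive and 273 in the CD49f-negative library. The known cattle sequence that the CD49f-positive entry was matched to begins 1 base earlier, so its bases 2 to 8 differ from the seed listed above.
bta-miR-375, known cattle sequence: tTTTGTTCgttcggctcgcgtga
The gorilla entry matched in the CD49f-negative library is identical to the listed sequence. The listed copies were 50% of the arm's CD49f-positive reads (44.1 to 55.9) and 59.0% of its CD49f-negative reads (54.3 to 63.5).

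Part of the reads of both arms carried mismatches. For miR-375-3p the share without a mismatch was 54.8% in CD49f-positive cells (48.9 to 60.7), against 63.7% in CD49f-negative cells (59.2 to 68.1). For miR-200b-3p it was 63.0% (56.5 to 69.2) and 56.9% (50.7 to 62.9). Over all named reads it was 67.3% and 64.0%. The intervals of each arm overlap between the libraries, for miR-375-3p only between 59.2 and 60.7. Such overlap does not show that the shares were equal. Counted over these reads alone, miR-375-3p kept 159 and 295 reads, at a log2 ratio of -2.38 (-2.67 to -2.10). miR-200b-3p kept 148 and 153 reads, at -1.54 (-1.88 to -1.20).

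Both compared member arms were at least 2-fold lower in CD49f-positive cells, with equal shares outside the interval, and none was higher. Over all 301 arms with at least 100 reads, 24.6% were called lower by that rule and 1.99% higher, so lower ratios were common in this comparison. The median log2 ratio of all 301 arms was -0.43. miR-375-3p lay 1.66 below it and was number 8 from the lowest ratio. miR-200b-3p lay 1.18 below it and was number 28, with 8.97% of the arms lower still. Since the members were known by these values, their place is not read as a property of epithelial miRNAs.

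**Figure D2:**
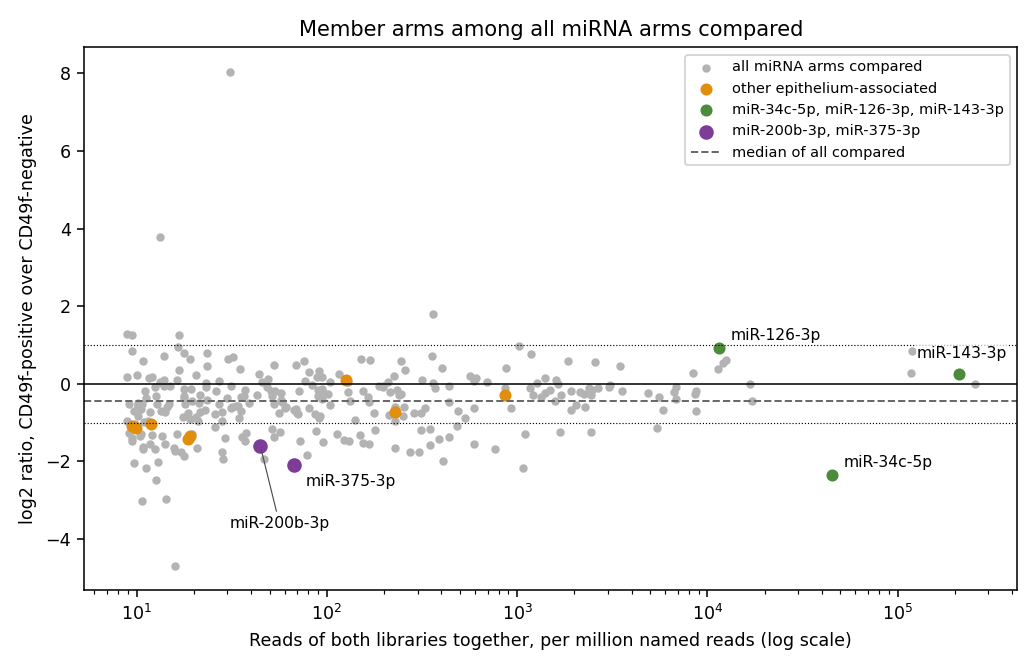
CD49f-positive over CD49f-negative log2 ratio (vertical axis) against the reads of both libraries together in RPM (horizontal axis, log scale) for the 301 arms with at least 100 reads; dotted lines mark 2-fold and the dashed line the median of -0.43. miR-375-3p at -2.09 and miR-200b-3p at -1.61 lie in the lower part of the cloud, where 24.6% of the arms passed the same rule.

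Ratios depended on the scaling of both libraries. TMM factors from edgeR, estimated over the 301 arms, raised every log2 ratio by 0.35 and moved the calls over all arms to 47 lower and 17 higher, against 74 and 6 with the read totals. Median-of-ratios factors from DESeq2 raised them by 0.44 and gave 40 lower and 26 higher. Calls higher were 26.6% and 39.4% of all calls then, against 7.5% with the read totals. miR-375-3p stayed lower at -1.74 (-1.96 to -1.53) and -1.66 (-1.88 to -1.44). miR-200b-3p stayed lower at -1.26 (-1.52 to -1.01) and -1.18 (-1.44 to -0.92), and the last interval includes changes under 2-fold. Estimated over all 1814 arms, most of them rare, the shifts were 0.82 and 0.83. miR-375-3p then kept its call at -1.27 and -1.26, while miR-200b-3p no longer reached 2-fold at -0.79 and -0.78.

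**Figure D3:**
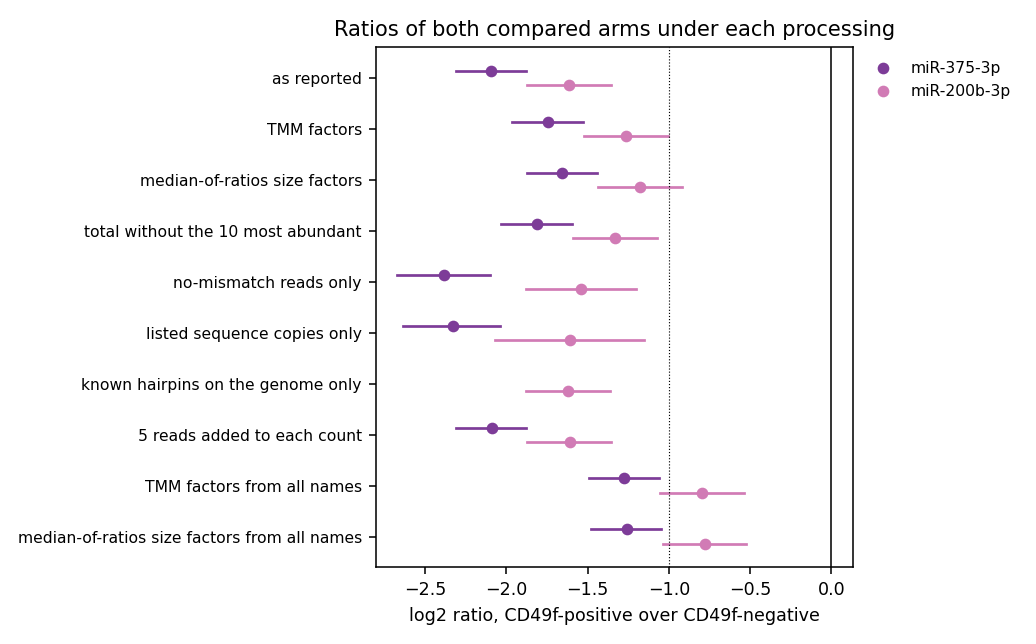
CD49f-positive over CD49f-negative log2 ratio with 95% counting intervals for miR-375-3p (dark) and miR-200b-3p (light) under each processing; the dotted line marks 2-fold lower. All values lie below 0, from -2.38 to -1.26 for miR-375-3p and from -1.62 to -0.78 for miR-200b-3p, which crosses the 2-fold line where factors were estimated over all names.

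Ratios of one miRNA to another are free of that scaling. miR-375-3p had 1.23 reads for each miR-200b-3p read in the CD49f-positive library (1.04 to 1.47), against 1.72 in the CD49f-negative library (1.48 to 2.01). The log2 difference was -0.48, with an exact interval from -0.82 to -0.14, and -0.84 (-1.29 to -0.40) over reads without mismatch. The pair therefore differed in its proportions between these libraries by more than counting error, with miR-375-3p lower relative to miR-200b-3p in CD49f-positive cells. The miR-375-3p reads come from a different hairpin match in each library, and the part of that in the difference was not tested.

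miRNAs of other testicular cells gave a scale for these values. miR-34c-5p, abundant in meiotic and later male germ cells, was read 174239 and 333117 times and lay at a log2 ratio of -2.35. Against it, miR-375-3p had 1.66 reads per 1000 miR-34c-5p reads in CD49f-positive cells, against 1.39 in CD49f-negative cells, a log2 difference of 0.26 (0.04 to 0.47), which was -0.03 (-0.31 to 0.26) over reads without mismatch. miR-200b-3p had 1.35 and 0.808 per 1000, a log2 difference of 0.74 (0.48 to 0.998). So the ratio of miR-200b-3p was less far below equal shares than that of miR-34c-5p, while for miR-375-3p the relation depended on whether mismatched reads were counted.

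The most abundant endothelial and smooth muscle arms had ratios above equal shares, short of 2-fold with the read totals. miR-126-3p of endothelium was read 107917 and 21312 times, at a log2 ratio of 0.92, and was called higher at 1.27 under TMM. miR-143-3p of smooth muscle and other mesenchyme was read 1813387 and 564567 times, at a log2 ratio of 0.26, but its list was mixed. Of the 7 compared arms of miR-143, miR-145, miR-199a and miR-214, 4 had ratios below 1. Called lower were 2, miR-145-5p at -1.24 and miR-214-5p at -1.39, where 24.6% of all 301 arms were called lower. The median of that list was -0.23, against -0.43 for all 301 arms, and turned positive under TMM (0.12) and median-of-ratios factors (0.20). Relative to miR-126-3p, miR-375-3p was lower by a log2 difference of -3.02 (-3.23 to -2.80) and miR-200b-3p by -2.54 (-2.79 to -2.28). Relative to miR-143-3p the log2 differences were -2.36 (-2.58 to -2.14) and -1.88 (-2.14 to -1.62).

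Among the marker lists of other cell types, the miR-34 and miR-449 list of germ cells was lower together with the members, while the summed shares of the endothelial and mesenchymal lists were higher. All 6 compared arms of miR-34b, miR-34c and miR-449a were called lower, against 24.6% of all 301 arms. With TMM and median-of-ratios factors over the 301 arms all 6 still were, against 15.6% and 13.3% of all arms, and with either factor over all names 5 were, against 4.98%. Their summed share of named reads was 2.25% in CD49f-positive cells, against 11.4% in CD49f-negative cells. The arms of miR-126 held 1.43% and 0.755%, and those of miR-143, miR-145, miR-199a and miR-214 held 22.7% and 19.1%, most of it miR-143-3p. The red blood cell miRNAs miR-451, miR-144 and miR-486 held 0.296% and 0.372%, and the white blood cell miRNAs miR-142, miR-223 and miR-155 held 0.0177% and 0.0217%; no arm of either list was called with the read totals. The epithelial list, which adds miR-203 and miR-203a to the miR-200 family and miR-205, came to 43.1 and 116 RPM, and of all these markers miR-205 alone was at 0. The part of these lists in the member ratios was not tested.

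Other miRNAs of epithelia were compared from a list of 10 names, of which 16 arms were listed and 8 had at least 100 reads. Of these 5 were called lower and none higher, where 24.6% of all arms were called lower, with a median log2 ratio of -1.06 against -0.43 for all arms. miR-182-5p, with 105 reads in each library, was at -1.42 (-1.82 to -1.02). Its cluster neighbours were miR-96-5p (111 and 105 reads) at -1.34 (-1.74 to -0.94) and miR-183-5p (59 and 47 reads) at -1.09 (-1.67 to -0.51). This cluster is known from sensory epithelia and is also present in male germ cells. miR-203a-3p of the epidermis, with 76 and 58 reads, was at -1.03 (-1.54 to -0.51). miR-215-5p, with 61.5 and 50.5 reads, was at -1.14 (-1.70 to -0.57). Apart from miR-182-5p, the intervals of these called arms include changes under 2-fold.

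The remaining arms of that list did not reach 2-fold. miR-7-5p, which like miR-375 is known from endocrine cells, was read 1580 and 982 times, at a log2 ratio of -0.73 (-0.85 to -0.62). The gut and liver miRNAs miR-192-5p (6656 and 3046.5 reads) and miR-194-5p (1051 and 366 reads) were at -0.29 and 0.10, and the ratio of miR-192-5p turned to 0.06 with TMM. With TMM factors over all names that of miR-7-5p turned to 0.09. The calls of this list depend on the scaling. Without the 10 most abundant miRNAs in the total, miR-182-5p at -1.14 and miR-96-5p at -1.06 were called lower, where 18.9% of all arms were. With TMM miR-182-5p alone was called lower, at -1.07, where 15.6% of all arms were. With the median of ratios none was, where 13.3% of all arms were. With factors over all names none was either, where 4.98% of all arms were.

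**Figure D4:**
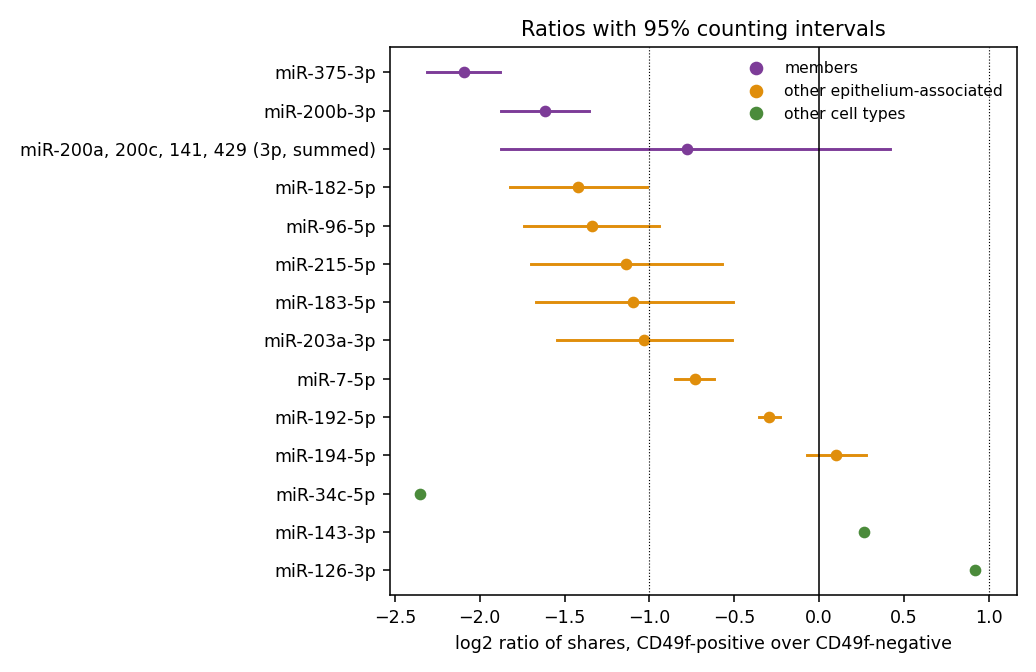
log2 ratio of shares, CD49f-positive over CD49f-negative, with 95% counting intervals, for the members (purple), other epithelium-associated miRNAs with at least 100 reads (orange) and miRNAs of germ, smooth muscle and endothelial cells (green); dotted lines mark 2-fold. miR-375-3p at -2.09 lies between miR-34c-5p at -2.35 and miR-200b-3p at -1.61, and the summed rarer family members at -0.78 have an interval that includes 0.

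By nearness of log2 ratio over both libraries, the arms most like miR-375-3p were miR-6123-5p (-2.03), miR-449a-3p (-2.16) and miR-34c-3p (-2.02). Those most like miR-200b-3p were miR-2887-5p (-1.63), miR-132-5p (-1.65) and miR-339b-5p (-1.57). With 1 library per group this likeness is a single number for each arm.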

How the data were processed

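Small RNA libraries of CD49f-positive and CD49f-negative cells were made from total RNA with an Illumina TruSeq kit, per the labels' protocols. The authors compared reads with mammalian hairpins of miRBase, with a goat genome and with expressed sequences, per the file headers and column notes. Aligner, releases and build: not given in the sources used here. The deposited reads of each arm are expected counts, since reads shared by hairpins were split among them. Copies of a listed sequence are whole counts, per the file headers. Hairpin GC percent and folding energy, per the file headers, were not used in a result. Interval lengths, with both ends included, matched the hairpin sequence for 1352 of 1352 placed entries. Whether positions count from 1 was not checked against a genome sequence.

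The members, lists and comparison miRNAs were chosen with earlier results of these data known. A listed ID that names no arm was assigned to the side holding most of its reads over both libraries. Unnamed entries (0.555% and 0.611% of listed reads) stayed out. Ratios are shares of named reads with 0.5 reads added to each count, with exact conditional binomial (Clopper-Pearson) 95% intervals of counts rounded to whole reads. A call needed at least 100 summed reads, a 2-fold ratio and an interval excluding 1. Every member arm was named, list members with at least 100 reads were given values, and the 3 arms nearest in ratio were named. edgeR 4.0.16 and DESeq2 1.42.0 were used for scaling factors alone (R 4.3.3). The rest was computed with Python 3.11.15, SciPy 1.17.1 and pandas 2.3.3. Calling was tested on simulated Poisson counts, which hold counting error only and neither PCR copies nor differences between animals. Small RNA ligation favours some sequences, which affects levels between miRNAs more than ratios between libraries.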

Additional observations from a re-analysis of the deposited data

How the results depend on the processing

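With read totals, the reads summed over all member arms had a log2 ratio of -1.87 (-2.03 to -1.71). It was -1.97 over reads without mismatch and -1.87 with 5 reads added to each count. It moved past its counting interval to -1.52 under TMM, -1.43 under the median of ratios, -1.59 without the 10 most abundant miRNAs in the total, -2.07 over copies of the listed sequences and -1.58 over known hairpins on the genome, where miR-375 has no entry. Copies were divided by the totals of all named reads, and the median log2 ratio of the 215 arms tested was then -0.13. With factors estimated over all names, chosen after seeing the data, the summed ratio was -1.05 (TMM) and -1.03 (median of ratios). The number of member arms called lower was 2 in 8 of 12 alternatives. Of all arms tested in those 8, the share called lower ran from 10.7% (no filter on low counts) to 29.4% (minimum of 20 reads). The number was 1 with known hairpins only (22.1% of all arms called lower), with the 4-fold rule (3.65%), and with each factor estimated over all names (4.98%). miR-375 has no entry among known hairpins, the 4-fold rule is stricter, and the factors over all names raise every ratio by 0.82 and 0.83, which takes miR-200b-3p to -0.79 and -0.78. No alternative gave a member arm called higher. miR-141-3p, never called, ranged from -1.08 to 0.09. No paired analysis was possible because each group has 1 library, and for the same reason no library could be left out. Depth limits the rarer members: 1 read is 0.122 RPM in CD49f-positive cells, against 0.326 RPM in CD49f-negative cells.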

Other observations

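Several arms of the other epithelium-associated miRNAs stayed under 100 reads. miR-203-5p was read 18 times in CD49f-positive cells, against 10 times in CD49f-negative cells, of which 0 and 2 matched without a mismatch, and a log2 ratio of -0.60 with an interval from -1.76 to 0.71. miR-215-3p had 3 and 5 reads, miR-203b-3p 1 and 4, miR-194-3p 1 and 3, and miR-183-3p 1 and 1. miR-192-3p had 1 and 0 reads, and miR-182-3p and miR-7-3p had 0 and 1 each.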
